A study of Homo sapiens with 8 samples.

Results

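The 5 genes SYNPO2, SHANK1, DNM1, RASGRP2 and SPNS3, of 63140 genes in the count table, were chosen by their measured counts, because their RNA was lower in pull-downs after HOTSCRAMBL knockout than after AAVS1 knockout. SYNPO2 was also selected on its higher counts after base editing. All 5 were found by their Ensembl identifiers, and all 5 were among the 24057 genes that passed the filter on low counts. The knockout values of the 5 genes, and the base editing values of SYNPO2, are therefore given as descriptions without a test. The other values were tested.

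The study treated human acute myeloid leukaemia cells with nucleases or base editors and sequenced the RNA from ChIRP (chromatin isolation by RNA purification), in which biotinylated DNA probes pull down an RNA together with what is cross-linked to it. HOTSCRAMBL is a long non-coding RNA, and the labels name AAVS1 as the control target for both editors. There were 4 groups of 2 libraries, all collected on day 3 after nucleofection, with 1 library of each group labelled MOLM13 and 1 labelled OCI-AML4, both established leukaemia lines. The files hold no library of known line against which these labels could be checked. The AAVS1 KO group (genotype given as WT) received Cas9 ribonucleoprotein with an AAVS1 guide, and the HOTSCRAMBL KO group received Cas9 with HOTSCRAMBL guides. The AAVS1 CBE group (also WT) received a cytosine base editor with an AAVS1 guide, and the HOTSCRAMBL CBE group received that editor with HOTSCRAMBL guides. Every group thus carried an editor, and no untreated library or input library was analysed here. The probes' target RNA and the share of edited cells are not given in the sources used here, and no gene of the table bears the name HOTSCRAMBL, so the edit itself could not be checked. Total counts were between 20548300 and 37970163 per library. Levels are given as CPM, counts relative to the library total, after TMM scaling, a correction for library composition. They are amounts in a pull-down, not enrichment over input. In such bulk libraries fewer cells of a type, less RNA per cell and less RNA recovered per pull-down cannot be told apart.

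SYNPO2, synaptopodin-2, is an actin-bundling protein of muscle and other contractile cells that works with filamin, alpha-actinin and the co-chaperone BAG3. SHANK1 is a scaffold of the postsynaptic density, where it links receptor complexes to the actin cytoskeleton through DLGAP and HOMER proteins. DNM1 encodes dynamin-1, the neuronal member of the GTPases that pinch clathrin-coated vesicles off the membrane, a task that DNM2 performs in most other cells. RASGRP2, also called CalDAG-GEFI, is a calcium-regulated exchange factor that switches on the small GTPase RAP1 ahead of integrin activation in platelets and leukocytes. SPNS3 is a membrane transporter of the spinster family, whose member SPNS2 exports sphingosine-1-phosphate. SYNPO2, SHANK1 and DNM1 are thus best known from muscle or neurons, and RASGRP2 from blood cells.

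All 12 myeloid markers examined were tested genes, with a summed level from 2840 to 3230 CPM over the libraries. Of 11 neuronal markers, MAP2, STMN2 and GAP43 were at 0 in every library, and the summed level was 1.22 to 11.9 CPM (AAVS1 KO 6.72 to 11.9, HOTSCRAMBL KO 1.22 to 7.24, AAVS1 CBE 8.02 to 10.4, HOTSCRAMBL CBE 5.31 to 7.34). Of 8 muscle markers DES and MYOCD were at 0 in every library. The summed muscle level was 41.8 to 46.8 CPM in AAVS1 KO, 24.5 to 33.1 in HOTSCRAMBL KO, 50.2 to 60.1 in AAVS1 CBE and 32.1 to 32.5 in HOTSCRAMBL CBE. The sum, with MYH11 as its largest part, was thus lower in the HOTSCRAMBL groups. MYH11 itself passed the test with base editing (−1.07, edgeR adjusted p 0.0132) and had −0.89 with knockout (edgeR adjusted p 0.11). The other tested muscle markers did not share one direction, and none was called. With knockout ACTA2 had 2.25, TAGLN −0.39 and MYL9 −0.73, and with base editing 0.09, −0.67 and 0.24. Of 6 platelet markers PF4 and PPBP were at 0 throughout, and the sum was 13.3 to 22.5 CPM. Of 6 T cell markers CD3E and CD2 were at 0 throughout, and the sum was 11.3 to 13.5 CPM in AAVS1 KO, 11 to 13.4 in HOTSCRAMBL KO, 10.7 to 13.6 in AAVS1 CBE and 1.93 to 4.71 in HOTSCRAMBL CBE. CD5, which made up most of it, fell with base editing (−1.76, edgeR adjusted p 0.0298). The sum for 5 erythroid markers was at most 3.06 CPM. In CPM, without regard to gene length, SYNPO2, SHANK1 and DNM1 alone were each above the whole neuronal sum in every library. SYNPO2 was likewise above the muscle sum of the same library in CPM. With 19530 exon bases SYNPO2 is at the 98.5 percentile of length among genes tested, so these CPM do not rank the genes per length. The part of these markers in the results was not tested.

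The genes lie on different chromosomes (GRCh38). SYNPO2 (ENSG00000172403) spans chr4:118850688-119061247 on the plus strand, with 19530 exon bases. SHANK1 (ENSG00000161681) spans chr19:50659255-50719802 on the minus strand, with 10491 exon bases. DNM1 (ENSG00000106976) spans chr9:128191655-128255248 on the plus strand, with 10748 exon bases. RASGRP2 (ENSG00000068831) spans chr11:64726911-64745456 on the minus strand, with 6084 exon bases. SPNS3 (ENSG00000182557) spans chr17:4433940-4488208 on the plus strand, with 2677 exon bases.

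The promoter windows of these genes differ in their CG content, and 4 are shown for that contrast. RefSeq (GRCh38.p14) gave 5 entries for 3 of the 5 genes, each from 250 bases before to 50 bases after an annotated start. They are printed 5′ to 3′ on the gene's strand, with every CG dinucleotide in capitals. The first is the outermost SYNPO2 start at chr4:118850431-118850730, the next a downstream SYNPO2 start at chr4:118888604-118888903, then DNM1 at chr9:128203129-128203428 and RASGRP2 at chr11:64745299-64745598.
SYNPO2 outer start: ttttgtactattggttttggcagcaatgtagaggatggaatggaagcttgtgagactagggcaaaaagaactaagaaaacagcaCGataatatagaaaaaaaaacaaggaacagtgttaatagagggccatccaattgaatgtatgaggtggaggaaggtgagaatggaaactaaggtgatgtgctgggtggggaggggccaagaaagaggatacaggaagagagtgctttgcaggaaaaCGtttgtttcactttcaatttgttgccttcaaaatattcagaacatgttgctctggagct
SYNPO2 downstream start: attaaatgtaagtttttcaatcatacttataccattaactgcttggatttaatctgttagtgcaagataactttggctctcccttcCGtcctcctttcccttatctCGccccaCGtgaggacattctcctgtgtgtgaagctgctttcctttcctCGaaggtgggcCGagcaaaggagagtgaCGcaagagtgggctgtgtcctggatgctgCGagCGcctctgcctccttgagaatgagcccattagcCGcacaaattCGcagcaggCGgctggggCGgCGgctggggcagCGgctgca
DNM1: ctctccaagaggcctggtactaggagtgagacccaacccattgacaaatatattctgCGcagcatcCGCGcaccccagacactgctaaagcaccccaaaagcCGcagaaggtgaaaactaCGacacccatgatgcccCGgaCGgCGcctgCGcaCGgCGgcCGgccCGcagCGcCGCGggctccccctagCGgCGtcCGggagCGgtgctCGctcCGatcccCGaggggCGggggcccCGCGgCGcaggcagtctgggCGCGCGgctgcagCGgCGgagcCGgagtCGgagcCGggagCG
RASGRP2: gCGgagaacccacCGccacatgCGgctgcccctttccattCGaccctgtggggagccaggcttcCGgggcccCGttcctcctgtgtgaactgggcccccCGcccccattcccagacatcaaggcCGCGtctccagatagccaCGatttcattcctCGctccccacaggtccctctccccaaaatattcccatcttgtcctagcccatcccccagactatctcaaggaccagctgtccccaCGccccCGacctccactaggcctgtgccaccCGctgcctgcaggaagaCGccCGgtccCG
The outer SYNPO2 window had 2 CG dinucleotides and 41% GC, against a median of 14 CG and 58.7% GC over 34796 promoter windows. The downstream SYNPO2 window had 14 CG, and the remaining SYNPO2 entry, at chr4:119026869-119027168, had 6. DNM1 had 36 CG and 70.3% GC, and RASGRP2 had 17 CG and 65% GC. Searched on both strands, the GC box GGGCGG, which contains a CG, occurred once each in the downstream SYNPO2, DNM1 and RASGRP2 windows and in 44.9% of all windows. The outer SYNPO2 window held CCAAT at 2 places (34.6% of all windows hold it). The Ets letters CCGGAA, which also contain a CG, occurred once in RASGRP2 (17.2% of windows). The MEIS letters TGACAG (15.8%) and the RUNX letters TGTGGT (13.1%) each occurred once in the SYNPO2 entry that is not printed. None of the 5 windows held TATAAA (11.6%), the HOX-PBX letters TGATTTAT (0.848%) or the CEBP half-site TTGCAA (5.53%). SHANK1 and SPNS3 had no entry.

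With knockout the 5 genes stood at 19.3% to 37.7% of the level in their AAVS1 KO controls, and DNM1 was at the bottom of that range. SYNPO2 measured 258 and 285 CPM in the AAVS1 KO libraries labelled MOLM13 and OCI-AML4, and 68.3 and 72.5 CPM in the HOTSCRAMBL KO libraries. The HOTSCRAMBL KO mean of SYNPO2 was 25.9% of control, with 26.4% for MOLM13 and 25.4% for OCI-AML4. The line labels thus gave nearly equal SYNPO2 ratios, and the underlying counts were high, from 1338 to 7136.

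SHANK1, the synaptic scaffold, measured 309 and 285 CPM in AAVS1 KO against 95 and 78.2 CPM in HOTSCRAMBL KO, a mean of 29.2% of control. DNM1, the vesicle-scission GTPase, measured 198 and 176 CPM in AAVS1 KO against 45.2 and 27 CPM in HOTSCRAMBL KO. Its ratio varied between line labels more than that of the other 4 genes, with 22.9% of control under MOLM13 and 15.3% under OCI-AML4. The lowest of these counts, 603 for DNM1 in HOTSCRAMBL KO under the OCI-AML4 label, was still well above the minimum of 10.

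RASGRP2, the RAP1 exchange factor, measured 459 and 411 CPM in AAVS1 KO against 159 and 158 CPM in HOTSCRAMBL KO, a mean of 36.5% of control. SPNS3, the transporter, measured 340 and 317 CPM in AAVS1 KO against 119 and 128 CPM in HOTSCRAMBL KO, a mean of 37.7% of control. In all 5 genes both HOTSCRAMBL KO libraries lay below both AAVS1 KO libraries, which also held for 23.8% of all genes tested. The 5 were chosen for this, so nothing is read from that count.

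**Figure D1:**
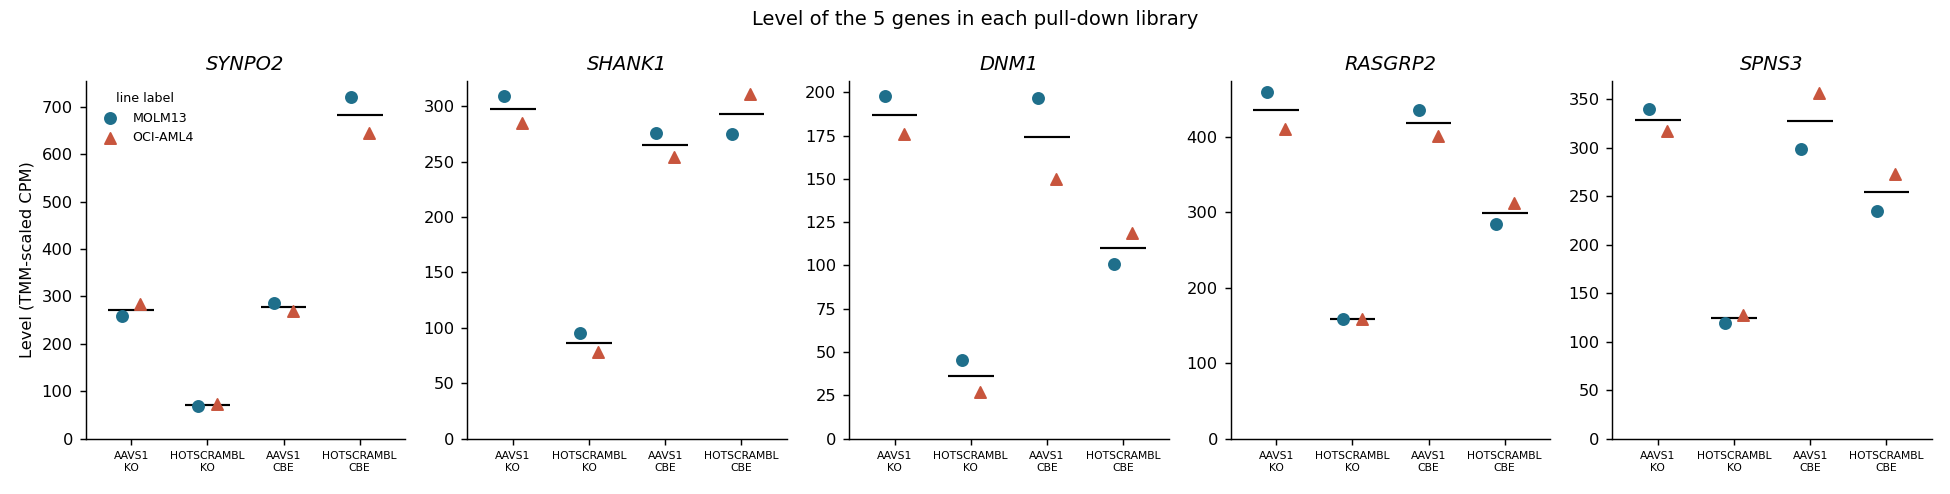
Level of each gene in TMM-scaled CPM (vertical axes start at 0, with a separate scale per gene) in the 4 groups. Circles are libraries labelled MOLM13, triangles those labelled OCI-AML4, and horizontal lines the mean of 2. Both HOTSCRAMBL KO points lie below both AAVS1 KO points in each panel, while SYNPO2 in HOTSCRAMBL CBE lies at 644 and 722 CPM, above every other group.

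On the log2 scale the edgeR knockout differences were −1.95 (SE 0.135) for SYNPO2, −1.78 (SE 0.139) for SHANK1, −2.39 (SE 0.198) for DNM1, −1.45 (SE 0.118) for RASGRP2 and −1.41 (SE 0.129) for SPNS3. Ranked by p-value among genes lower with knockout, they took the first 5 places, in the order SYNPO2, SHANK1, RASGRP2, DNM1 and SPNS3. The choice of where to stop was not marked by a gap. SPNS3, the last inside, had −1.41, and SYTL1, a RAB27 effector in vesicle docking and the first outside, had −1.36 with a level going from 388 to 152 CPM. KIFC1, a mitotic kinesin, followed with −1.18, and AHNAK, a giant scaffold protein, with −0.90. Over all genes 4.25% were called lower with knockout and 8.76% in either direction.

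Between the 2 control groups, where neither arm targeted HOTSCRAMBL, the same genes were close together. The log2 difference of AAVS1 CBE from AAVS1 KO was 0.03 for SYNPO2, −0.16 for SHANK1, −0.11 for DNM1, −0.06 for RASGRP2 and −0.01 for SPNS3. For example SYNPO2 averaged 272 ± 19.1 CPM (SD, n = 2) with Cas9 and 278 ± 11.2 with the base editor, and SPNS3 averaged 329 ± 15.6 and 328 ± 41.1. These control levels entered the choice of the genes and carry no test.

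Base editing split the 5 genes. DNM1, RASGRP2 and SPNS3 fell, SYNPO2 was higher, and SHANK1 did not pass the test in either direction. Of the 4 genes whose base editing values were not used to choose them, 3 were thus called lower by edgeR at an adjusted p of 0.05, where 4.27% of all genes were called lower. All 4 belong to the 339 genes with a mean of at least 100 CPM and 60% GC or more, and of those 45.1% were called lower, so the count is not far beyond that of like genes. The knockout and base editing comparisons share no library. The values rest on 2 libraries a group, and nothing beyond their line labels says that these come from separate cultures. The p-values and intervals therefore measure only the spread between these samples. For each gene edgeR estimated that spread partly from other genes, as a gene alone leaves 3 residual degrees of freedom.

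DNM1 measured 197 and 150 CPM in AAVS1 CBE and 101 and 119 CPM in HOTSCRAMBL CBE. The groups did not overlap, and the drop was larger under the MOLM13 label (51.4% of control) than under OCI-AML4 (79.6%). The log2 fold change was −0.66 (SE 0.156, 95% interval −0.98 to −0.34, edgeR adjusted p 0.00588). The call for DNM1 was lost without AAVS1 CBE replicate 1 (−0.49, edgeR adjusted p 0.305) and without HOTSCRAMBL CBE replicate 1 (−0.35, edgeR adjusted p 0.477).

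RASGRP2 measured 436 and 401 CPM in AAVS1 CBE and 284 and 313 CPM in HOTSCRAMBL CBE, again without overlap. Its log2 fold change was −0.49 (SE 0.107, 95% interval −0.71 to −0.27, edgeR adjusted p 0.00302). Leaving out AAVS1 CBE replicate 1 (−0.42, edgeR adjusted p 0.151) or HOTSCRAMBL CBE replicate 1 (−0.36, edgeR adjusted p 0.212) ended the RASGRP2 call. SPNS3 measured 299 and 357 CPM in AAVS1 CBE and 235 and 273 CPM in HOTSCRAMBL CBE. The SPNS3 groups did not overlap, but the distance between them was small beside the spread within AAVS1 CBE. Its log2 fold change was −0.37 (SE 0.114, 95% interval −0.60 to −0.13, edgeR adjusted p 0.0415). That SPNS3 call stood close to the threshold and was lost whichever of the 8 libraries was left out (edgeR adjusted p 0.0654 to 0.424).

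SHANK1 measured 276 and 254 CPM in AAVS1 CBE and 275 and 311 CPM in HOTSCRAMBL CBE, so the groups overlapped. Its log2 fold change was 0.14 (SE 0.117, edgeR adjusted p 0.555), and the 95% interval of −0.10 to 0.38 leaves out a fall of the size seen for DNM1 or RASGRP2 with the same editor. Without HOTSCRAMBL CBE replicate 2 the SHANK1 value was −0.02. SYNPO2 measured 286 and 270 CPM in AAVS1 CBE and 722 and 644 CPM in HOTSCRAMBL CBE, 245% of control by the means and 1.30 (SE 0.107) on the log2 scale. Both HOTSCRAMBL CBE libraries of SYNPO2 were above all other libraries. Among tested genes 22.7% had both above both AAVS1 CBE libraries. DNM1, RASGRP2 and SPNS3 had both below, a pattern held by 23.7% of tested genes.

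**Figure D2:**
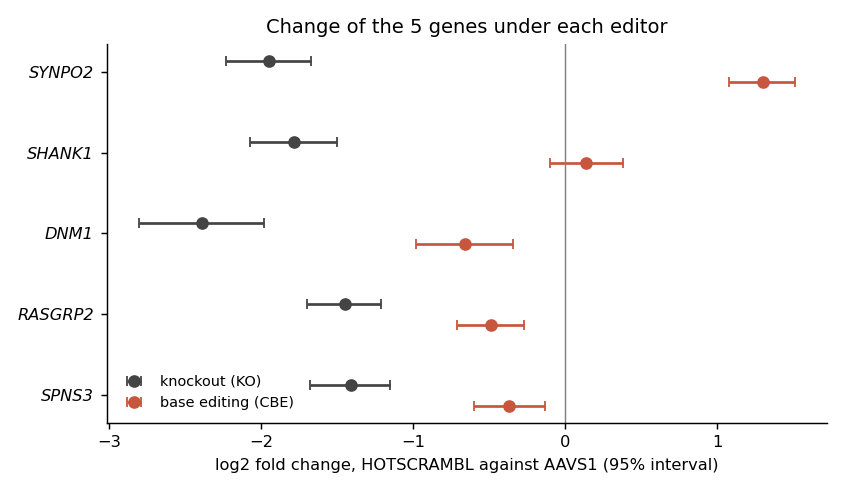
Log2 fold change of HOTSCRAMBL against AAVS1 (horizontal axis) for each gene with knockout (dark) and with base editing (red). Points are edgeR estimates from 8 libraries and bars are 95% intervals. The knockout points lie between −2.39 and −1.41, and the base editing points between −0.66 for DNM1 and 1.30 for SYNPO2.

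The 2 effects differed within each gene, as a description, by −3.24 for SYNPO2, −1.92 for SHANK1, −1.73 for DNM1, −0.97 for RASGRP2 and −1.04 for SPNS3 on the log2 scale (knockout minus base editing). RASGRP2 and SPNS3 were therefore the pair whose values under the editors lay nearest to each other. The order of levels per exon kilobase in AAVS1 KO was SPNS3 (123 CPM per kb), RASGRP2 (71.5), SHANK1 (28.3), DNM1 (17.4) and SYNPO2 (13.9). In HOTSCRAMBL CBE the order of the last 3 changed, with SYNPO2 at 35, SHANK1 at 27.9 and DNM1 at 10.3 CPM per kb. The SPNS3 and RASGRP2 levels, at 95 and 49.1, stayed above these. In HOTSCRAMBL KO, SYNPO2 at 3.6 and DNM1 at 3.36 CPM per kb were not separated beyond their spread. Nor were they in AAVS1 CBE, where DNM1 lay at 18.4 and 13.9 and SYNPO2 at 14.7 and 13.8 CPM per kb. By mean CPM over the 8 libraries the 5 genes ranked from the 93.6 to the 98.3 percentile of genes tested.

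The line label made no detectable difference to any of the 5 genes. The log2 difference of libraries labelled MOLM13 from those labelled OCI-AML4 was 0.03 for SYNPO2 (SE 0.0823, edgeR adjusted p 0.963), 0.06 for SHANK1 (SE 0.0887, edgeR adjusted p 0.907) and 0.19 for DNM1 (SE 0.119, edgeR adjusted p 0.666). It was 0.04 for RASGRP2 (SE 0.0787, edgeR adjusted p 0.932) and −0.12 for SPNS3 (SE 0.0848, edgeR adjusted p 0.7). None of the 5 had an unadjusted p under 0.05, and none was called by DESeq2. Over all genes 119 of 24057 were called for the line label (0.495%), so 0 of 5 is near the background. Deviations of same-label libraries from their group means correlated with r of only 0.00851 to 0.0245. Like ratios under both labels are therefore agreement between 2 libraries and are not read as agreement between 2 lines. Whether the libraries came from different lines was not tested. The widest interval was that of DNM1, from −0.05 to 0.44.

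The GC content of the transcripts differed between SYNPO2 and the rest. In the longest GENCODE v29 transcript of each gene, GC was 43.4% for SYNPO2, 68.9% for SHANK1, 60.5% for DNM1, 63.9% for RASGRP2 and 62.5% for SPNS3, with a median of 48.3% over the genes tested that had a value. SHANK1 stood at the 99.3 percentile of GC and SYNPO2 at the 29.4 percentile. Among genes with a mean of at least 100 CPM, the 339 genes with 60% GC or more showed medians of −0.34 on the log2 scale with knockout and −0.34 with base editing, and 43.1% and 45.1% of them were called lower. The 644 such genes under 45% GC had medians of −0.04 and 0.11, with 14.8% and 6.99% called lower. The base editing value of SPNS3 (−0.37) was near the median of its GC class. The part of GC content in these results was not tested.

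**Figure D3:**
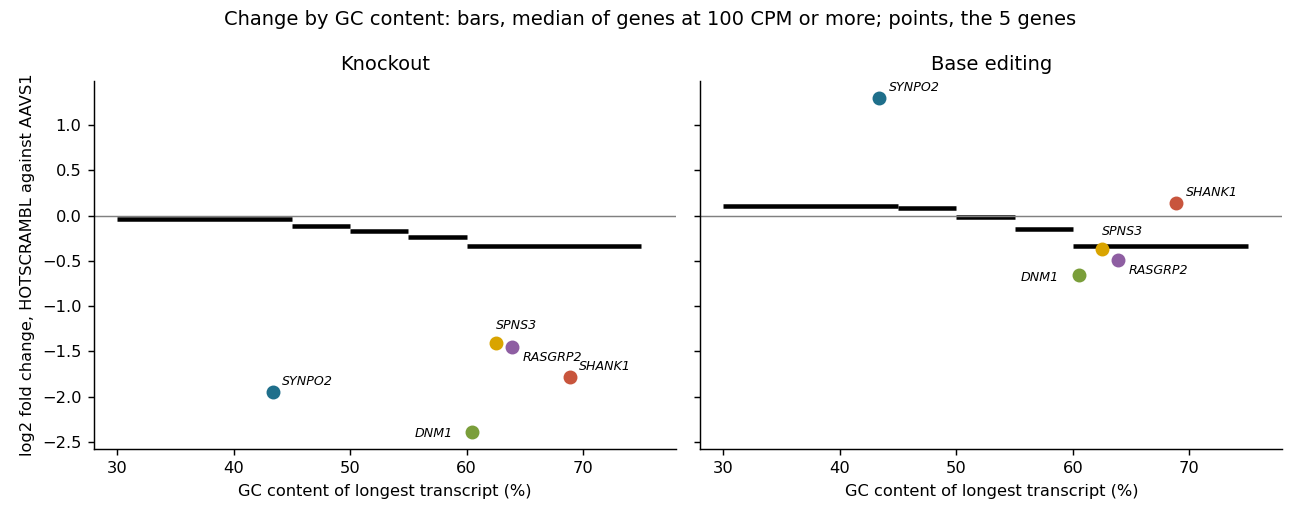
Log2 fold change (vertical axis) against GC content of the longest transcript in percent (horizontal axis), with knockout on the left and base editing on the right. Black bars are medians of genes with a mean of at least 100 CPM in 5 GC classes, the outer classes being open-ended beyond the drawn bar, and points are the 5 genes. The medians go from −0.04 to −0.34 on the left and from 0.11 to −0.34 on the right, and SPNS3 on the right lies near the bar of its class.

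Overlapping genes were examined because counting ignored strand and discarded reads that fell on more than 1 gene. Of 57 annotated genes within 100 kb, 6 overlapped a member's span and 3 shared exon bases. C19orf81 shares 56 bases (0.534%) with the exons of SHANK1 and CIZ1, a cell cycle protein gene, shares 46 bases (0.428%) with those of DNM1. Neither was called, with log2 fold changes of −0.37 and −0.07 with knockout and 0.90 and 0.06 with base editing. CIZ1 averaged 136 CPM with AAVS1 and 131 CPM with HOTSCRAMBL knockout while DNM1 went from 187 to 36.1.

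ENSG00000262823, an antisense transcript, shares 99 bases (3.7%) with the exons of SPNS3. It averaged 31.2 ± 4.31 CPM (SD, n = 2) in AAVS1 KO and fell to 12.7 ± 4.67 CPM with knockout (−1.28, edgeR adjusted p 0.0222), next to −1.41 for SPNS3 itself. Its knockout call ended without any 1 of the 4 KO libraries, with values from −1.71 to −0.98. With base editing it measured 27.6 and 28.1 CPM (−0.01, edgeR adjusted p 0.992). Without strand, reads of SPNS3 and of this transcript cannot be told apart within the shared bases, and reads on both genes were discarded. Outside the shared bases, reads were counted for the gene whose exons they fell on, whatever their strand. A processed pseudogene, ENSG00000249002, lies within SYNPO2, and the microRNA genes MIR199B and MIR3154 lie within DNM1, all without shared exon bases. RASGRP2 had no overlapping gene. Reads that fell at several positions were not counted, so reads shared by DNM1 and near copies of it would show in neither. The 1 DNM1 pseudogene looked at here, DNM1P35, was not called (log2 fold change −0.31 with knockout, edgeR adjusted p 0.805). That value cannot show whether DNM1 reads were lost in this way.

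The genes beside the 5 did not share one direction, but more of those called fell than rose. With knockout 8 of 38 tested neighbours within 100 kb were called (21.1%), 2 higher and 6 lower, against 8.76% called over all genes. Their median log2 fold change was −0.32, against −0.01 over all genes. The neighbours were not matched to all genes for level or GC content. With base editing 7 were called (18.4%), 3 higher and 4 lower, with a median of −0.36, against 8.83% and −0.02. Called neighbours beyond the nearest were all lower. With knockout these were ENSG00000293495 near SHANK1 (−0.81, edgeR adjusted p 0.0031), PTGES2 near DNM1 (−0.77, edgeR adjusted p 0.00639) and SF1 near RASGRP2 (−0.35, edgeR adjusted p 0.0182). With base editing they were PTGES2 (−0.92, edgeR adjusted p 7.84e-04), SLC25A25-AS1 near DNM1 (−1.12, edgeR adjusted p 0.00214) and MYBBP1A near SPNS3 (−0.61, edgeR adjusted p 8.92e-04). These calls were not followed with libraries left out. SEC24D, a COPII vesicle coat protein gene 12 kb upstream of SYNPO2, rose with knockout from 89.3 to 158 CPM (0.82, edgeR adjusted p 5.48e-04). With base editing it rose from 82.4 to 124 CPM (0.60, edgeR adjusted p 0.0094). SYNPO2 next to it was lower with knockout and higher with base editing. The SEC24D knockout call ended without AAVS1 KO replicate 2 (0.76), and its base editing call without AAVS1 CBE replicate 1 or either HOTSCRAMBL CBE replicate (0.45 to 0.76 with 1 library left out).

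CLEC11A, a secreted growth factor gene 3.6 kb upstream of SHANK1, fell from 891 to 639 CPM with knockout (−0.48, edgeR adjusted p 4.57e-04). It also fell with base editing, from 870 to 656 CPM (−0.41, edgeR adjusted p 0.00216), unlike SHANK1 in the latter. Upstream of DNM1, BBLN rose with both (1.58, edgeR adjusted p 0.00456, and 1.33, edgeR adjusted p 0.0247). GOLGA2, a Golgi matrix protein gene 0.6 kb downstream of DNM1, fell with knockout (−0.54, edgeR adjusted p 0.0418) and had −0.37 with base editing (edgeR adjusted p 0.149). PYGM, 0.9 kb upstream of RASGRP2, was at most 2.87 CPM in any group mean and was not called. Its mean went from 2.87 to 0.051 CPM with knockout (−5.78, edgeR adjusted p 0.0704). With base editing it went from 1.54 to 0.287 CPM (−2.29, edgeR adjusted p 0.361). NRXN2 on the other side of RASGRP2 and SYT3 downstream of SHANK1 were likewise low and not called. They had 0.37 and 3.98 with knockout, and 0.31 and −0.43 with base editing. For SPNS3 the nearest tested gene upstream, UBE2G1, had −0.01 with knockout and rose with base editing (0.84, edgeR adjusted p 0.0186), and SPNS2-AS1 downstream was not called. Of these neighbour calls, that of CLEC11A with knockout ended without AAVS1 KO replicate 1, and with base editing without replicate 1 of either CBE group. The BBLN values ranged from 1.33 to 2.08 with knockout and from 0.95 to 2.01 with base editing when 1 library was left out. The BBLN calls ended without either AAVS1 KO replicate or HOTSCRAMBL KO replicate 1 in the former, and without any AAVS1 or HOTSCRAMBL CBE library, or either AAVS1 KO library, in the latter. The UBE2G1 call (0.61 to 1.04) ended without any 1 of the 4 CBE libraries, and the GOLGA2 call (−0.76 to −0.33) without any library but HOTSCRAMBL KO replicate 2.

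**Figure D4:**
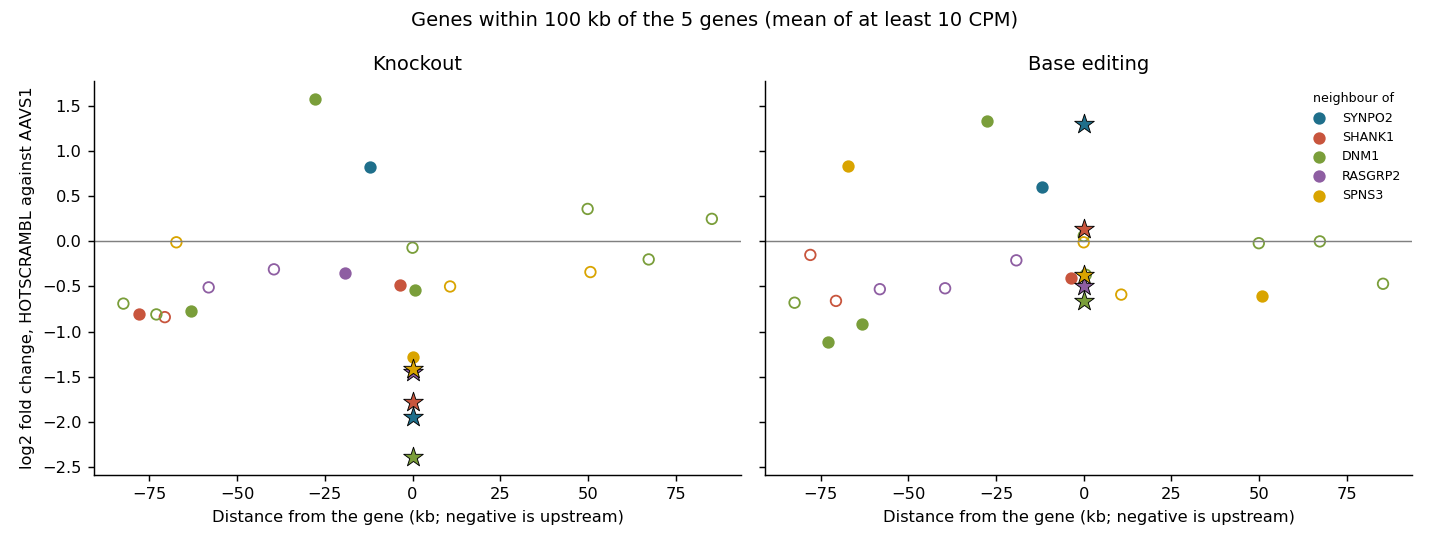
Log2 fold change (vertical axis) against distance from the gene in kb (horizontal axis, negative is upstream) for 20 tested neighbours with a mean of at least 10 CPM, coloured by the gene they neighbour, with knockout on the left and base editing on the right. Stars are the 5 genes, filled circles passed the threshold and open circles did not. With knockout only the antisense transcript in SPNS3 (−1.28), at distance 0, comes near the stars, and SEC24D and BBLN lie above 0 on both sides.

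No paralog was called. DNM2, the dynamin of most cells, averaged 552 ± 32.2 CPM (SD, n = 2) in AAVS1 KO, 540 ± 61.2 in HOTSCRAMBL KO, and 524 ± 1.09 and 470 ± 28.4 with base editing. Neither DNM2 nor DNM3, DNM1L, SYNPO, SHANK2, SHANK3, RASGRP1, RASGRP3, RASGRP4, SPNS1 or SPNS2 passed the edgeR threshold under either editor, and SYNPO2L was too low to test. RASGRP4, the paralog of mast cells and myeloid cells, averaged 33.9 and 18.9 CPM with knockout (−0.83, edgeR adjusted p 0.116). SHANK2 and SHANK3 stayed at or below 2.13 CPM in every group mean.

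Partner genes were read from 5 lists, 95 genes in all, of which 84 were tested. With knockout 10 were called higher and 4 lower (16.7%), where 8.76% of all genes were called, 4.51% higher and 4.25% lower. With base editing 9 were called higher and 4 lower (15.5%), where 8.83% of all genes were called, 4.56% higher and 4.27% lower. The medians over the lists together were 0.06 and −0.04. The list genes, too, were not matched to all genes for level or GC content.

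Among actin and chaperone partners of SYNPO2, 4 of 13 tested were higher and 0 lower with knockout, with a median log2 fold change of 0.18. ACTN2, the alpha-actinin of muscle Z-discs, rose from 0.86 ± 1.22 to 38.8 ± 4.26 CPM (SD, n = 2; 5.50, SE 0.608, edgeR adjusted p 2.28e-07). Because AAVS1 KO replicate 1 is at 0, the fitted ACTN2 value ranged from 4.54 to 13.01 with 1 library left out, the highest without AAVS1 KO replicate 2, and its size is uncertain. BAG3, the co-chaperone, rose from 9.47 to 27.2 CPM (1.51, edgeR adjusted p 0.00937), and HSPA8, its HSP70 partner, from 195 to 316 CPM (0.70, edgeR adjusted p 7.65e-04). FLNC, the muscle filamin, was at 0 in both AAVS1 KO libraries and at 10.2 and 0.179 CPM in HOTSCRAMBL KO, so its call rests on 1 library. With 1 library left out the BAG3 value ranged from 1.04 to 1.96, and its call ended without AAVS1 KO replicate 1 or either HOTSCRAMBL KO replicate. The knockout value of HSPA8 ranged from 0.51 to 0.94, and its call ended without AAVS1 KO replicate 1 or HOTSCRAMBL KO replicate 2. With base editing 1 gene was higher and 1 lower, with a median of 0.03. HSPA8 rose from 237 to 312 CPM (0.41, edgeR adjusted p 0.0448) and FLNA, the filamin of most cells, fell from 1880 to 1240 CPM (−0.60, edgeR adjusted p 7.60e-06).

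Among 16 tested SHANK paralogs and scaffold partners, 1 rose and 2 fell with knockout, with a median of −0.07. DLGAP4, a scaffold that binds SHANK proteins, fell from 55.2 to 26.7 CPM (−1.06, edgeR adjusted p 0.00985) and HOMER3, an adaptor, from 64.1 to 33.8 CPM (−0.92, edgeR adjusted p 0.0088). BAIAP2, a membrane-bending actin regulator, rose from 11.3 to 37.8 CPM (1.75, edgeR adjusted p 7.03e-04). The DLGAP4 value ranged from −1.56 to −0.58 with 1 library left out, and its call ended without either AAVS1 KO replicate or without HOTSCRAMBL KO replicate 2, which gave the −0.58. The HOMER3 call (−1.17 to −0.72) ended without AAVS1 KO replicate 1 or HOTSCRAMBL KO replicate 1, and that of BAIAP2 (1.52 to 2.04) without AAVS1 KO replicate 1. With base editing 1 fell, the membrane scaffold DLG4, from 79.5 to 53.2 CPM (−0.58, edgeR adjusted p 0.0438), and the median was −0.43. In the same comparison DLGAP4 and HOMER3 measured 0.12 and 0.04, so that, as for SHANK1, only their knockout values were far from 0. The base editing calls of HSPA8 and DLG4 and the knockout call of GOLGA2 stood near the threshold and ended under 11, 12 and 10 of 18 alternatives.

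Of 20 tested dynamin and endocytosis genes, 2 rose and 1 fell with knockout (median 0.03), and 4 rose and 0 fell with base editing (median 0.21). AP2M1, the cargo-binding subunit of the clathrin adaptor AP-2, rose with both (0.87, edgeR adjusted p 0.00604, and 0.73, edgeR adjusted p 0.01). PACSIN2, a membrane-curving protein that binds dynamin, rose with knockout from 115 to 194 CPM (0.76, edgeR adjusted p 3.84e-04). FNBP1, an F-BAR protein that also binds dynamin, fell from 131 to 80 CPM with knockout (−0.71, edgeR adjusted p 0.00281), and with base editing it rose from 127 to 182 CPM (0.52, edgeR adjusted p 0.00951). EPS15, an endocytic adaptor, rose with base editing (0.80, edgeR adjusted p 0.00913). The base editing calls of AP2M1, FNBP1 and EPS15 each ended without any 1 of the 4 CBE libraries. With knockout, the calls of AP2M1 and FNBP1 ended without either AAVS1 KO replicate, and also without HOTSCRAMBL KO replicate 2 for AP2M1 and replicate 1 for FNBP1.

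Among 23 tested genes of the RASGRP, RAP1 and integrin list, 3 rose and 1 fell with knockout (median 0.26), and 4 rose and 2 fell with base editing (median −0.02). APBB1IP, the RAP1 effector also called RIAM, rose from 122 to 278 CPM with knockout (1.19, edgeR adjusted p 2.57e-07) and by 0.99 with base editing. ITGB2, the leukocyte integrin beta chain, rose with both (0.66, edgeR adjusted p 2.31e-04, and 0.56, edgeR adjusted p 0.00121). SIPA1, a GTPase-activating protein that switches RAP1 off, rose with knockout from 172 to 291 CPM (0.75, edgeR adjusted p 1.41e-04), and ITGA4, an integrin alpha chain, fell from 185 to 96.9 CPM (−0.94, edgeR adjusted p 1.44e-04). RASA3, another such GTPase-activating protein, fell with base editing from 470 to 295 CPM (−0.67). The ITGA4 call ended without AAVS1 KO replicate 1 (−0.76), and the base editing call of ITGB2 without either AAVS1 CBE replicate or without HOTSCRAMBL CBE replicate 2 (0.46 to 0.67 with 1 library left out). The genes that rose with knockout therefore included a RAP1 effector, an integrin chain and a RAP1 inhibitor.

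Of 12 tested genes of the SPNS and sphingosine-1-phosphate list, edgeR called 0 under either editor, with medians of −0.22 and −0.08. At an unadjusted p under 0.05 there were 1 with knockout and 3 with base editing, and other settings called up to 2. SPNS2, the exporter, averaged 41.7 and 29.4 CPM with knockout and 47.6 and 32.4 CPM with base editing (−0.59, edgeR adjusted p 0.122).

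**Figure D5:**
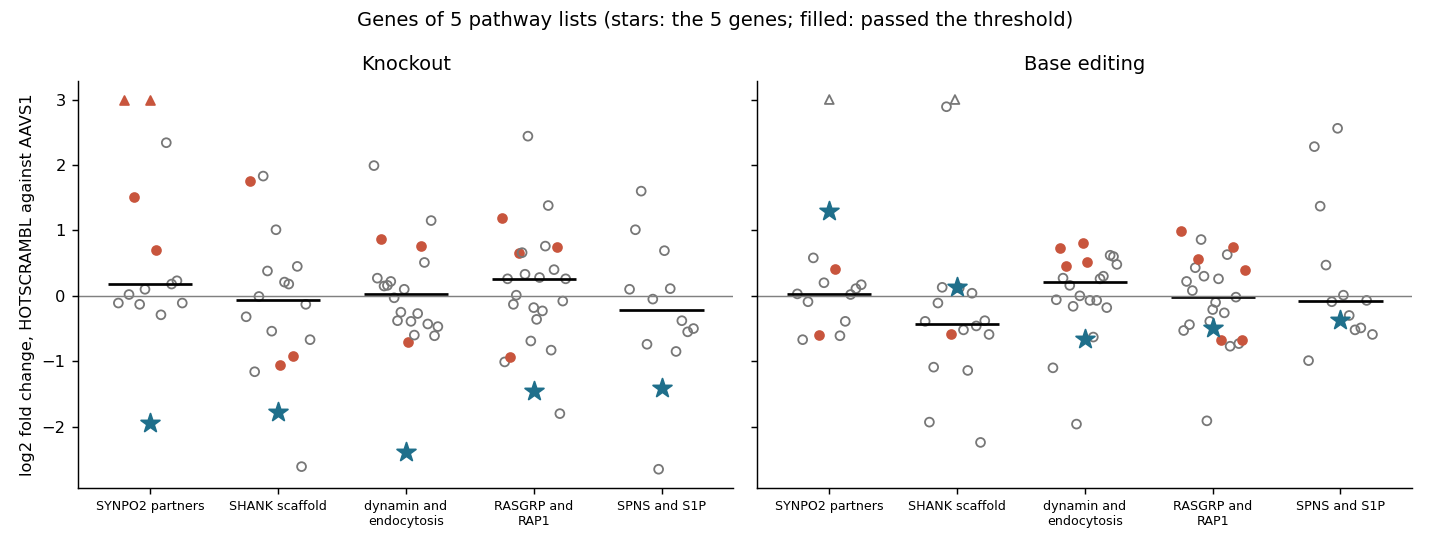
Log2 fold change (vertical axis) of the tested genes in 5 lists, with knockout on the left and base editing on the right. Filled red points passed the threshold, open points did not, bars are list medians, stars are the gene each list was built around, and triangles at 3 mark 4 values beyond the axis. The knockout stars lie below the medians, which run from −0.22 to 0.26.

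The genes whose levels most resembled each of the 5 over the 8 libraries, among 9640 genes with a mean of at least 10 CPM, are given as a description. All points share the library, its depth and its group. For SYNPO2 these were ATXN1 (Pearson r 0.994), TPM4 (0.992) and SENP6 (0.989), whose log2 fold changes of −0.24, −0.58 and −0.73 with knockout and 0.15, 0.27 and 0.41 with base editing were much smaller than those of SYNPO2. For SHANK1 they were VEGFA (0.994), ARID1B (0.992) and CIT (0.992), and for DNM1 SYTL1 (0.996), BAHCC1 (0.989) and GATA2 (0.988). For RASGRP2 they were BAHCC1 (0.99), MRTFA (0.986) and NLRC3 (0.985). For SPNS3 they were AZU1 (0.993), LINC00899 (0.984) and KIFC1 (0.983). AZU1, a neutrophil granule gene and one of the myeloid markers, fell with knockout from 989 to 536 CPM (−0.89, edgeR adjusted p 5.08e-08) and had −0.17 with base editing. Of the 12 myeloid markers 3 rose and 2 fell with knockout, where 8.76% of all genes were called, among them LYZ upward from 130 to 604 CPM (2.20, edgeR adjusted p 9.41e-13). With base editing 2 rose and 1 fell, where 8.83% of all genes were called. These were PTPRC, the leukocyte phosphatase CD45 (0.67, edgeR adjusted p 0.00647), the transcription factor CEBPA (0.61, edgeR adjusted p 0.00212) and the G-CSF receptor CSF3R (−0.38, edgeR adjusted p 0.00658). The part of these marker changes in the values of the 5 genes was not tested.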

How the data were processed

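RNA recovered by ChIRP was measured in 8 libraries, grouped by their titles. The deposited table holds raw counts per gene: per the file headers, the authors counted with featureCounts 2.0.6 on the Ensembl 112 annotation of GRCh38, without strand, with both reads of a pair counted separately, and without reads that fell at several positions or on several genes. The aligner is not given in the sources used here. Total counts were 20548300 to 37970163 per library. The table's 63140 genes included 2 records broken over several lines, which were rejoined, and 62541 had a symbol. No other sample's column was present.

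Genes were tested with edgeR 4.0.16 (R 4.3.3), by quasi-likelihood F-test with TMM scaling and filterByExpr at a minimum count of 10. All 8 libraries shared the fit, with 4 group terms and a term for the line label (3 residual degrees of freedom). P-values were adjusted over 24057 genes (Benjamini-Hochberg), and calls were made at 0.05. edgeR's newer quasi-likelihood setting was chosen after seeing the data, since the older gave infinite prior degrees of freedom. The line label pairs same-numbered libraries across groups. Their deviations from the group means correlated with r from 0.00851 to 0.0245 over 6 pairs. The steps were run on simulated counts for the base editing comparison only, with changes larger than those of DNM1, RASGRP2 and SPNS3 there. The outcome is not given here, and nothing is read from it.

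The 5 genes and the lists were chosen with earlier results of these data known. Genes named besides them were genes sharing exon bases and nearest tested neighbours, paralogs, up to 3 called genes with the smallest p per list and comparison, and the 3 most correlated genes. Neighbours were searched within 100 kb. FLNC, DNM1P35, marker genes, farther called neighbours and the genes just outside the choice were named after their values were seen. Alternatives were DESeq2 1.42.0, limma-voom 3.58.1, other scalings and filters, halved counts, the fit without the line label, the 4 libraries of a comparison alone, each library left out, and edgeR's older setting.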

Additional observations from a re-analysis of the deposited data

Results flagged for a closer look

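Among the named partner genes, 5 had effects that differed between the editors by edgeR's test of the difference itself (knockout effect minus base editing effect, log2 scale, adjusted over all genes). Partner genes were named for a small p-value under 1 of the editors, and those same values enter the difference, which favours finding one. The share of all genes with such a difference is not given here, so nothing is read from the count of 5. ACTN2 differed by 6.17 (SE 1.31, edgeR adjusted p 0.00551), with 5.50 under knockout and −0.67 under base editing, and its AAVS1 KO libraries stood at 0 and 1.72 CPM. BAIAP2 differed by 3.68 (SE 0.696, edgeR adjusted p 0.00192), with 1.75 and −1.93. FNBP1 differed by −1.23 (SE 0.203, edgeR adjusted p 4.15e-04), with −0.71 and 0.52. SIPA1 differed by 0.77 (SE 0.178, edgeR adjusted p 0.0126), with 0.75 and −0.02. FLNA differed by 0.48 (SE 0.113, edgeR adjusted p 0.016), with −0.13 and −0.60.

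SHANK1 was flagged by sign alone, with a base editing log2 ratio of 0.29 under OCI-AML4 and −0.01 under MOLM13. The latter is 99.6% of control and close to no change, so no reversal is read from the 2 labels. That difference was not tested and rests on 1 library a group and label. With 2 libraries a group no single library could be examined as an outlier.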

How the results depend on the processing

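The knockout values of the 5 genes kept their sign under all 18 alternatives, from −2.11 to −1.82 for SYNPO2, −1.94 to −1.65 for SHANK1, −2.72 to −2.11 for DNM1, −1.61 to −1.37 for RASGRP2 and −1.57 to −1.26 for SPNS3. With base editing, fitting the 4 libraries of that comparison alone ended the calls of DNM1 (−0.66, edgeR adjusted p 0.148), RASGRP2 (−0.49, edgeR adjusted p 0.0986) and SPNS3 (−0.37, edgeR adjusted p 0.133). Leaving out 1 library in turn gave −0.94 to −0.35 for DNM1, −0.61 to −0.36 for RASGRP2, −0.45 to −0.28 for SPNS3 and −0.02 to 0.31 for SHANK1. For the line label it gave −0.04 to 0.09 for SYNPO2 and −0.01 to 0.11 for RASGRP2, with −0.04 for SYNPO2 without either HOTSCRAMBL CBE replicate, and 0 and −0.01 for RASGRP2 without AAVS1 KO replicate 1 and 2. Without the replicate block for the line label, SPNS3 kept −0.37 with base editing but lost its call (edgeR adjusted p 0.131), and list genes called with base editing went from 13 to 8. The block changed no other call of the 5 genes.

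Genes called with knockout, 2108, became 4208 with DESeq2, 661 with the 4 libraries alone and 701 to 1679 with 1 library left out. With base editing 2124 became 3439, 528 and 579 to 1935. For the line label 119 became 769 with DESeq2, 265 with limma-voom, 193 with edgeR's older setting and 26 to 58 with 1 library left out. List genes called with knockout, 14, became 25 with DESeq2, 26 without TMM, 7 with 4 libraries and 5 to 14 with 1 left out, and with base editing 25, 3 with 4 libraries and 3 to 11. Neighbours called with knockout, 8, became 13 with DESeq2, 2 and 1 to 7, and with base editing 7 became 12, 0 and 0 to 7. Without TMM the median of all genes moved to −0.17 with knockout and −0.15 with base editing, and 33.1% and 32.6% of calls were higher, against 51.5% and 51.6%. With the 4 libraries alone 65.1% and 64.4% were higher. Of 31 calls of single list or neighbour genes, 8 were kept under every alternative: ACTN2, PACSIN2, SIPA1, APBB1IP and ITGB2 with knockout, and FLNA, RASA3 and APBB1IP with base editing. The cause of the lost calls was not tested. Counts of the 5 genes were 603 or more per library, and the spread was measured on 2 libraries a group. How far counting error and the spread between libraries each limit the precision was not tested.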
